A study of Homo sapiens with 3 samples.

Results

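The metallothioneins examined here are 9 genes, MT1A, MT1E, MT1F, MT1G, MT1H, MT1M, MT1X, MT2A and MT3, out of 22714 gene names in the files. Their rows were taken by gene symbol, and each of the 9 had exactly 1 row. The family was chosen by a measured value, MT1E being listed at 0 in the control and present with the compound, so that difference is described and not tested. RNA was sequenced from TC32, an established Ewing sarcoma line, in 3 libraries, and these cells carry the EWS-FLI1 fusion. The control is labelled wild type with no further treatment named, the EWS-FLI1 knockdown library is titled shEF, and the compound library came from cells given YK-4-279 at 3 µM for 15 hours, with DMSO as the vehicle. Whether control cells had vehicle or a hairpin of their own, and the duration of the knockdown, is not in the labels. Each group is 1 library of 1 cell line, so there is no spread between replicates, no test was possible, and "higher" and "lower" describe these libraries only.

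Metallothioneins are very small proteins in which cysteines hold zinc and copper, and cadmium when cells meet it. They buffer free zinc, and their genes are switched on by the zinc-sensing transcription factor MTF1, which binds short metal response elements in their promoters. Glucocorticoids and oxidative stress also raise them in many cells. MT2A and several MT1 genes are expressed in most tissues, while MT3 belongs mainly to brain and the related MT4 to stratified epithelium.

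The coding sequences of the members are much alike. In GENCODE release 29 the members other than MT3 have 61 codons each, of which 20 are cysteine codons (32.8%), and MT3 has 68 codons with 20 for cysteine (29.4%). The coding sequences of MT2A, MT1X and MT1E are shown because these 3 carry the results below, with the cysteine codons in capitals.
MT2A: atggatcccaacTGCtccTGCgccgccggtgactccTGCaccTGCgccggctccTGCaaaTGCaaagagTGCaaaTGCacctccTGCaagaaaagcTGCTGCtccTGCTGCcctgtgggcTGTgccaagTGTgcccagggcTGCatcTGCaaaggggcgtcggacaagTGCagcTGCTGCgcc
MT1X: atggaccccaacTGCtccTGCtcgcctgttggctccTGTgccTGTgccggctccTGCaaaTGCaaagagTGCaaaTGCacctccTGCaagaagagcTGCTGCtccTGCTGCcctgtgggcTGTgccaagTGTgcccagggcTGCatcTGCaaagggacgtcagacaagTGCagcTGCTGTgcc
MT1E: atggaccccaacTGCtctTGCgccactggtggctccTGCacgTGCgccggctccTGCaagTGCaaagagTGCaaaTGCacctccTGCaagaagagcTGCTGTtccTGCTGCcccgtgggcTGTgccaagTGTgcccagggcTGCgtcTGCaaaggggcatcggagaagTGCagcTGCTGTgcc
Over these stretches MT1X and MT2A were 92.3% identical, MT1E and MT2A 92.3%, and MT1E and MT1X 90.7%. MT3 was the most distant member, between 73.0% and 76.0% identical to the others.

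Because of this likeness the authors' division of reads between members bears on every value. Of all 50-base windows in the coding transcripts of MT2A, 4.24% also occur in another gene's transcripts, against 43.6% for MT1X and 7.10% for MT1E. Of the 100-base windows of MT1X, 30.8% are shared, all with AC026461.1, a noncoding transcript annotated over the same locus, and none of the 100-base windows of MT2A or MT1E are shared. The windows of MT1E shared at 50 bases match no window of MT1X or MT2A, the abundant members. Those of MT1G match both and those of MT1F match MT1X. The sources used here give neither the read length nor the treatment of reads with several matches, so the levels of single members are uncertain and the family sum is given beside them.

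RefSeq promoters (GRCh38.p14) were at hand for 3 of the 9 members, MT2A, MT1X and MT1H. They are shown, as the 250 bases before the start on the plus strand, because MT2A and MT1X make up nearly all metallothionein RNA here and MT1H was listed at 0 throughout. Capitals mark matches on either strand to the core of the metal response element, searched as TGCACNC and TGCGCNC.
MT2A, chr16:56608334-56608583: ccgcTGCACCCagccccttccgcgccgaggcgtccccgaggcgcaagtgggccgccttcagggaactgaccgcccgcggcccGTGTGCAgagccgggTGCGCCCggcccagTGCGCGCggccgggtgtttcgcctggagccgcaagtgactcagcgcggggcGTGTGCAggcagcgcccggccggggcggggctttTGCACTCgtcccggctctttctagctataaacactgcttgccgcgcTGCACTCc
MT1X, chr16:56682220-56682469: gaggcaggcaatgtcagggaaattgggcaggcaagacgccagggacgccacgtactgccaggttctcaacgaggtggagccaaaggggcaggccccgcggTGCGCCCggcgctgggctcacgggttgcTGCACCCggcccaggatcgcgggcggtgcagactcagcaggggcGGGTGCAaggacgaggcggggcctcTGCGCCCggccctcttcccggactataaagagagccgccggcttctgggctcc
MT1H, chr16:56669564-56669813: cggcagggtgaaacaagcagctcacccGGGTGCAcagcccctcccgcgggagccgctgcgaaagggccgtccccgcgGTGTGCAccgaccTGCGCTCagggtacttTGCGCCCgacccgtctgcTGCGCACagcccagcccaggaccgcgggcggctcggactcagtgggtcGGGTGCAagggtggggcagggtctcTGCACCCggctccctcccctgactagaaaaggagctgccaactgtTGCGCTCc
MT2A holds 7 matches, MT1X 4 and MT1H 8, with no matches overlapping. At least 4 matches occur in 0.37% of the 35116 promoters searched over the same length, and at least 7 in 0.0313%. Among these 3 promoters the number of matches did not follow the level, since MT1H has the most and was listed at 0. MT1B and MT4, which are not members, held 3 matches each and were also listed at 0. A match is a run of letters and not evidence of binding.

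The libraries were checked before the members were compared. FLI1, which holds the DNA-binding part of the fusion, had 65.9 FPKM (fragments per kilobase of transcript, scaled to library size) in control cells, 1.48 after knockdown and 8.29 with YK-4-279 as deposited. Scaled as described below, these were 27.8, 1.75 and 15.9, log2 ratios to control of -3.39 after knockdown and -0.77 with YK-4-279, the latter -0.27 on the second scale described below. Of 10 Ewing sarcoma markers, 9 were above 1 FPKM in the control, and CD99 was listed at 0 in all 3 libraries. None of 6 endothelial markers was above 1 FPKM in any library, and of 7 leukocyte markers at most 2 were. CD68 had 61.4, 18.3 and 6.52 FPKM in the control, knockdown and YK-4-279 libraries, and LYZ had 1.71 in the control. CD3E was listed at 0 everywhere. Of 6 epithelial markers 2, 1 and 1 were above 1 FPKM in that order. They were KRT18, at 5.12, 3.51 and 2.01 FPKM, and in the control EPCAM at 1.69. Of 9 fibroblast markers, 5, 7 and 5 were above 1 FPKM in the control, knockdown and YK-4-279 libraries. Between 3432 and 4732 names were listed at 0 in a library. Such a 0 may stand for a failed estimate, and whether that of CD99 does was not tested. Names at 0 in the control with more than 1 FPKM in both other libraries numbered 13. The same count was 10 for the knockdown library and 7 for YK-4-279.

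Deposited values differ in overall scale, so ratios need a common scale. Each library was divided by its median ratio to the geometric mean of each name, over 17160 names above 0 in all 3 libraries, and 1 was added before taking log2. The factors were 0.421 for control, 1.18 for knockdown and 1.92 for YK-4-279. Of all names, 9939 with a mean deposited FPKM of at least 1 were compared, and a log2 ratio of at least 1 in size was called higher or lower. On this scale the median compared name still stood at -0.50 after knockdown and -0.38 with YK-4-279, both as log2 ratios to control, because rarer names weigh on the scaling. A scale set on compared names alone, chosen after seeing the data, brings these medians to 0.0064 and 0.029, and ratios of abundant genes then lie 0.66 and 0.52 higher. Both are given where they differ, as the "all-names" and "compared-names" scales.

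Metallothionein RNA in TC32 came almost wholly from MT1X and MT2A. MT1X had 514 FPKM in control cells, 57.6 after knockdown and 163 with YK-4-279 as deposited, which scaled on all names became 216, 67.9 and 313. MT2A had 235, 116 and 83.9 FPKM as deposited and 99.1, 137 and 161 scaled. MT1X was thus lowest in the knockdown library and highest with the compound after scaling, while MT2A was lowest in the control. By an estimate from the smallest steps in low values, these levels rest on about 3501, 1488 and 5817 fragments for MT1X and 2069, 3863 and 3868 for MT2A, taking the shortest coding transcript of each. Counting error at that depth is given below as a standard error (SE) of the log2 ratio, and it says nothing of the spread between cultures. It would be larger if the authors' FPKM used lengths shorter than the full transcript.

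**Figure D1:**
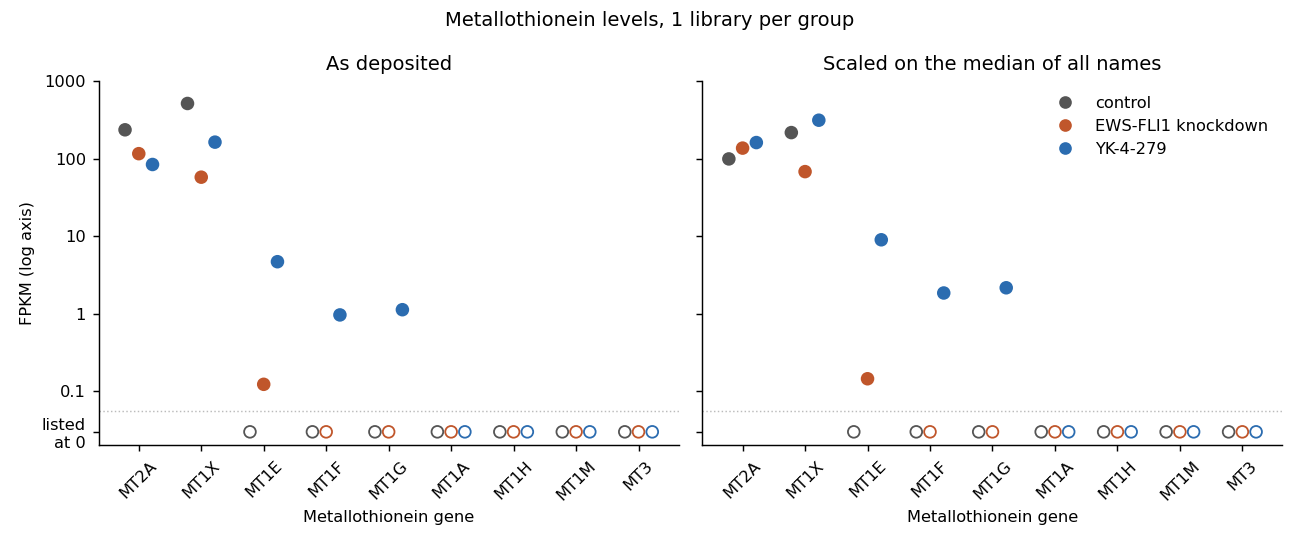
FPKM of the 9 metallothionein genes in each of the 3 libraries, as deposited (left) and scaled on the median of all names (right), on a log axis with values listed at 0 drawn as open circles at the foot. MT1X and MT2A lie between 57.6 and 514 FPKM as deposited, MT1E, MT1F and MT1G lie far lower and highest with YK-4-279, and the other 4 genes are open in every library.

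The remaining members were scarce or listed at 0. MT1E was listed at 0 in the control, had 0.123 FPKM in the knockdown library and 4.68 with YK-4-279, or 0.145 and 8.98 after scaling. MT1F and MT1G were listed at 0 in the control and the knockdown library and had 0.965 and 1.13 FPKM with the compound, or 1.85 and 2.16 after scaling. MT1A, MT1H, MT1M and MT3, the brain form, were listed at 0 in all 3 libraries. So 2 members were above 0 in control cells, 3 after knockdown and 5 with YK-4-279, and the 3 that appear beside MT1X and MT2A were highest in the compound library.

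Depth sets how low a level a value listed at 0 can hide, if that 0 is a low count and not a failed estimate. Which of these holds for the members was not tested. By full transcript length, 1 fragment on MT1E in the control was worth between 0.0906 and 0.199 FPKM, depending on which of its transcripts is taken. There 3 fragments were worth up to 0.597, and up to 0.476 and 0.649 on MT1F and MT1G. These are estimates and no upper bounds, since the length used in the authors' FPKM is not known. With a shorter length 1 fragment would be worth more on such short transcripts, and the fragment numbers would be smaller. The deposited values of MT1E, MT1F and MT1G with YK-4-279 lay above these estimates for 3 fragments, at 4.68, 0.965 and 1.13 FPKM. The value of MT1E with YK-4-279 corresponds to about 123 to 271 fragments and its value in the knockdown library to only 2.34 to 5.15. For MT1F and MT1G the compound library held about 31.8 to 52.8 and 27.2 to 56.1 fragments. In deposited FPKM 1 fragment was worth the most in the control, 0.066 over 1 kb against 0.0174 in the knockdown library and 0.0126 with YK-4-279. These worths also hold the overall scale of the deposited values, whose factors were 0.421, 1.18 and 1.92 in that order. Multiplied by the factors they differ far less. No fold is given against a value listed at 0.

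The make-up of the family, which no scaling between libraries can change, differed most in the knockdown library. MT1X made up 68.6% of the summed metallothionein FPKM in control cells, 33.2% after knockdown and 64.2% with YK-4-279. MT2A made up 31.4%, 66.7% and 33.1%. MT1E contributed 0.0709% in the knockdown library and 1.85% with YK-4-279, where MT1G and MT1F added 0.444% and 0.380%. The ratio of MT1X to MT2A was 2.18 in control cells, 0.497 after knockdown and 1.94 with the compound. MT1X was the more abundant in the control and the compound library, and MT2A in the knockdown library, a change of -2.13 on the log2 scale against control. With YK-4-279 the same change was -0.17.

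**Figure D2:**
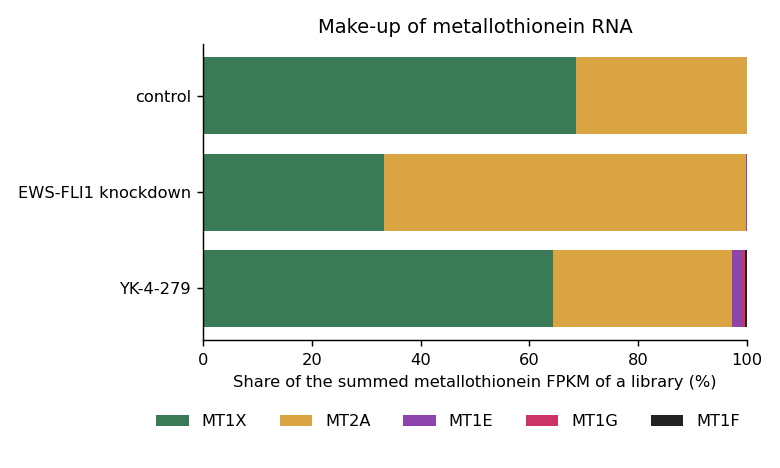
Share of each member in the summed metallothionein FPKM of each library, in percent, 1 bar per library. MT1X takes 68.6% of the control bar and 64.2% of the YK-4-279 bar but 33.2% of the knockdown bar, and MT1E, MT1G and MT1F are visible as thin segments with YK-4-279.

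After knockdown of EWS-FLI1 the pair parted. MT1X had a log2 ratio to control of -1.66 on the all-names scale (counting SE 0.04) and just missed the threshold on the compared-names scale, at -0.999. It was -0.41 with equal total FPKM and -3.13 as deposited. MT2A had 0.46 (counting SE 0.04) and 1.12, and it was 1.70 with equal total FPKM and -1.02 as deposited. On the all-names scale 1 of the 3 compared members, MT1X, was lower and 0 were higher, where 33.8% of compared names were lower and 9.17% higher. On the compared-names scale 0 were lower and 1, MT2A, was higher, where 17.0% of names were lower and 17.3% higher. Of all compared names, 15.6% lay below MT1X and 81.0% below MT2A on the all-names scale, and 17.0% and 85.2% on the other. The summed family had 315 scaled FPKM in control cells and 205 after knockdown, a log2 ratio of -0.62, with 46.0% of compared names below it. The family sum had no fixed direction, since it was 0.04 on the compared-names scale, 0.63 scaled on total FPKM and -2.10 as deposited. In the same library the 9 fibroblast markers summed to 142 scaled FPKM against 36.2 in the control and 30.1 with YK-4-279. COL3A1, a fibrillar collagen, alone gave 91.5 of the 142, from 1.46 in control cells, while DCN, decorin, went the other way, from 11.4 to 1.39. The 10 Ewing sarcoma markers summed to 508 in control cells, 135 after knockdown and 341 with YK-4-279, and 7 of the 9 compared were lower after knockdown. The part of either list in the metallothionein values was not tested. In bulk RNA fewer cells of a type and less RNA per cell cannot be told apart.

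With YK-4-279 both abundant members lay above most genes. MT1X had a log2 ratio to control of 0.53 (counting SE 0.03) and MT2A of 0.69 (counting SE 0.04) on the all-names scale, and 1.04 and 1.21 on the compared-names scale. On deposited values both were lower in this library, at -1.65 and -1.47, where the median compared name was at -2.20. Of compared names, 96.4% lay below MT1X and 97.6% below MT2A, and 97.8% and 98.2% on the other scale. Of the 3 compared members, 1 was called higher on the all-names scale, MT1E, against 1.56% of compared names, and 3 on the compared-names scale, against 2.41%. None was lower on either, where 8.18% and 1.69% of names were. MT1E entered the comparison only through its value in this library and therefore had to differ. The summed family had 486 scaled FPKM against 315 in the control, a log2 ratio of 0.62 or, on the compared-names scale, 1.14, with 97.2% and 98.0% of compared names below it. As deposited it was -1.56.

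**Figure D3:**
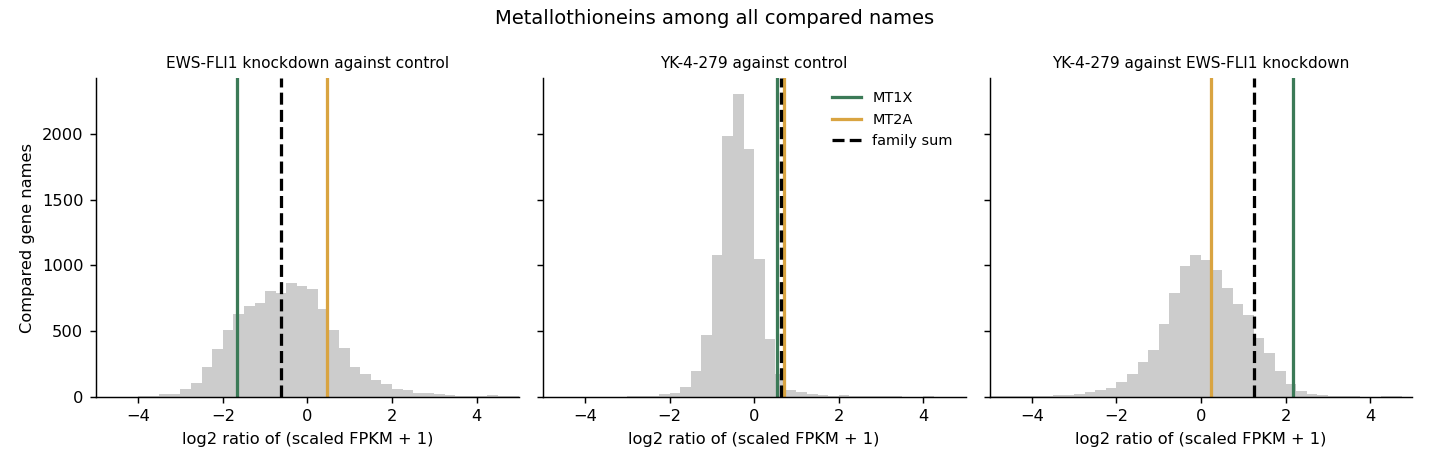
Histograms of the log2 ratio of (scaled FPKM + 1) over 9939 compared names for each comparison on the all-names scale, with MT1X, MT2A and the family sum as vertical lines. After knockdown the lines stand apart at -1.66, 0.46 and -0.62, and with YK-4-279 they stand together at 0.53, 0.69 and 0.62 in the upper tail.

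Set directly against each other, without the shared control, the treated libraries differed mainly in MT1X. MT1X was higher with YK-4-279 than after knockdown, with a log2 ratio of 2.19 (counting SE 0.04) on the all-names scale and 2.04 on the compared-names scale, and 98.5% and 98.4% of compared names lay below it. MT2A had 0.24 and 0.09, near the middle of all names, with 55.9% and 54.2% below, and it was -0.46 as deposited and -0.51 scaled on total FPKM. MT1E had 3.12 and 3.21, against a knockdown value of about 2.34 to 5.15 fragments. Of the 3 compared members 2, MT1E and MT1X, were higher with YK-4-279 on both scales, where 18.4% and 15.3% of compared names were higher, and 0 were lower, where 11.7% and 14.5% were. MT1E was compared only through its value with YK-4-279, which also chose the family, so it had to be higher here, and nothing is read from its count. The family sum had a log2 ratio of 1.25 on the all-names scale and 1.10 on the other, with 87.8% and 87.1% of names below it, but 0.50 scaled on total FPKM and 0.55 as deposited.

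Level of expression moved with these ratios and has to be read beside them. Compared names were split into 5 equal groups by their level in the library outside each comparison, and MT1X and MT2A fell in the most abundant group every time. For the knockdown against control, the median of that group was -1.61 (quartiles -2.04 and -1.08) on the all-names scale, while the least abundant group stood at 0.27. MT1X, at -1.66, lay at the middle of its group, with 47.0% of names below it, and MT2A lay high, with 96.3% below it. For YK-4-279 against control the median of the most abundant group was -0.52 (quartiles -0.77 and -0.23), and 95.5% and 96.5% of its names lay below MT1X and MT2A. For YK-4-279 against knockdown the group's median was 1.04, with 96.4% of its names below MT1X and 15.5% below MT2A. These groups are broad, the most abundant one reaching from 12.5 to 7033 FPKM in the YK-4-279 library, and medians were lower at higher levels after knockdown, so the middle at the very level of MT1X and MT2A is not given by them.

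**Figure D4:**
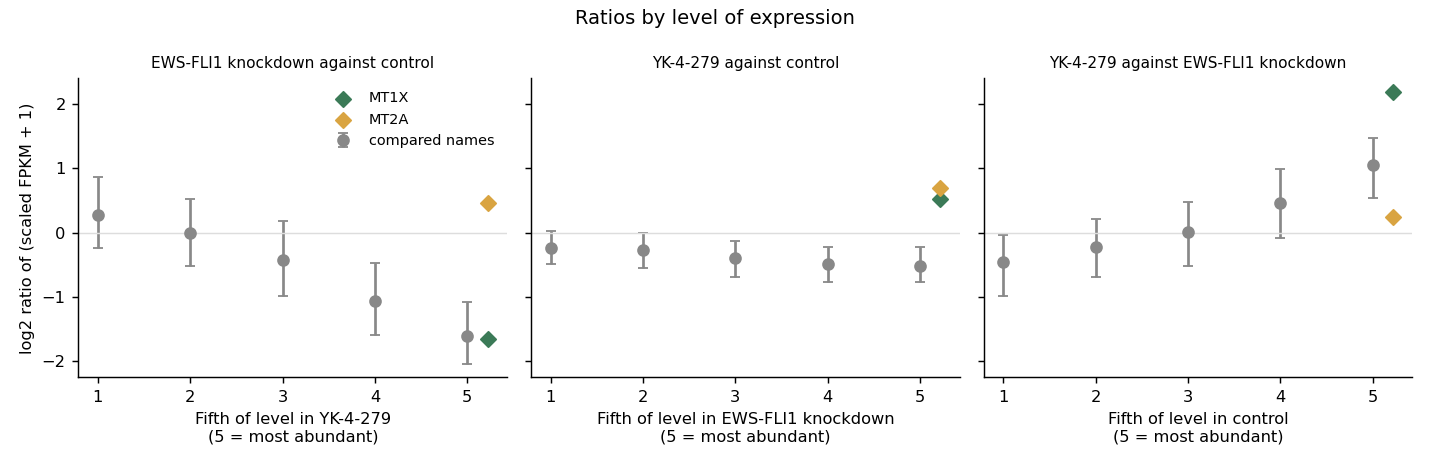
Median and quartiles (bars) of the log2 ratio in 5 equal groups of compared names by level in the library outside each comparison, with MT1X and MT2A as diamonds, on the all-names scale. In the knockdown comparison the medians run from 0.27 in the scarcest to -1.61 in the most abundant group, where MT1X lies beside the median and MT2A at 0.46.

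Transcript length was looked at as well, since metallothionein transcripts are short. Compared names not found in GENCODE by symbol were left out, so each length group held 1748 or 1749 names. In the fifth of names with the shortest longest transcript, up to 2075 bases, the median log2 ratio was -0.95 after knockdown and -0.36 with YK-4-279. In that group 25.7% of names lay below MT1X and 87.9% below MT2A after knockdown, and 93.9% and 95.0% with the compound. For YK-4-279 against knockdown the group's median was 0.58, with 96.0% of its names below MT1X and 37.6% below MT2A. Over all compared names, with those not found in GENCODE, 15.6% lay below MT1X after knockdown and 55.9% below MT2A in the direct comparison. Both positions thus differ among short transcripts.

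The names closest to the family sum in their pattern over the 3 libraries were found by distance between pairs of log2 ratios to control. On the all-names scale they were UBE2S, a ubiquitin-conjugating enzyme of the anaphase-promoting complex, at a distance of 0.0163, then CYP4F22, ZNF30, MGST3 and PRRT4, at up to 0.0792. MGST3, a microsomal glutathione transferase, had 255 FPKM in control cells, 56.1 after knockdown and 88.5 with YK-4-279, a level of the same order as the metallothioneins. On the compared-names scale MAP7D3, MGST3, UBE2S, C22orf15 and GNG11 were closest, at 0.0739 to 0.117. CYP4F22, ZNF30, PRRT4 and C22orf15 were scarce, at 2.09, 1.94, 1.98 and 2.41 FPKM in control cells. After knockdown these 4 had 0.222, 0.175, 0.197 and 0.511 FPKM. At such levels the 1 added before taking log2 shapes the ratio, so their likeness to the abundant family depends on it. MGST3 and UBE2S stood on both lists, and nothing beyond likeness over 3 libraries is meant.

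The nearest genes beside the cluster on chromosome 16 lay near the middle of all names with YK-4-279, while after knockdown NUP93 stood near MT1X. In the RefSeq gene order BBS2, a component of the ciliary BBSome, is the nearest coding gene on the side of MT4, and NUP93, a nuclear pore protein, the nearest on the side of MT1X. BBS2 had 7.88 FPKM in control cells, 4.02 after knockdown and 1.24 with YK-4-279, with log2 ratios to control of 0.41 and -0.36 on the all-names scale. NUP93 had 267, 26.9 and 43.4 FPKM, with ratios of -1.79 and -0.43. With YK-4-279 the ratios were 0.03 for BBS2 and 0.08 for NUP93 on the compared-names scale. Of compared names 52.5% lay below BBS2 and 45.3% below NUP93 with the compound on the all-names scale, and 49.7% and 56.2% on the other. Of 10 neighbours on the list 7 were compared. After knockdown HERPUD1, a stress-induced protein of the endoplasmic reticulum, was higher at 1.23. Lower were NUP93, OGFOD1, a hydroxylase of a ribosomal protein, at -2.06 and NUDT21, a cleavage factor of messenger RNA ends, at -2.39. Among all compared names 9.17% were higher and 33.8% lower after knockdown. With YK-4-279 0 neighbours were higher and 2 lower, NUDT21 at -1.69 and OGFOD1 at -1.04, and on the compared-names scale NUDT21 alone at -1.19. With the compound 1.56% of compared names were higher and 8.18% lower, and on the compared-names scale 2.41% and 1.69%. The neighbours' median ratio with the compound was -0.43, beside -0.38 for all compared names.

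The zinc sensor stood close to the middle of all names. MTF1 had 5.10 FPKM in control cells, 1.42 after knockdown and 0.927 with YK-4-279, and its log2 ratios to control were -0.23 and -0.18 on the all-names scale and 0.20 and 0.16 on the compared-names scale. SLC30A1, the zinc exporter of the cell surface and a classical target of MTF1, had 2.35, 2.43 and 0.410 FPKM, with ratios of 0.96 after knockdown and -0.16 with YK-4-279. It passed the threshold after knockdown on the compared-names scale, at 1.35, where 17.3% of compared names were higher. No other of the 7 compared genes among MTF1 and the exporters passed on either scale against control, and their medians were -0.23 and -0.38, beside -0.50 and -0.38 for all names. With YK-4-279 the list therefore stood at the median name, though it lay -0.17 from it with no filter on low values. Of compared names 70.4% lay below SLC30A1. That gene was scarce, at 0.990 scaled FPKM in the control and 0.786 with the compound. The 1 added before taking log2 therefore shrinks its ratio.

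Zinc importers were mixed after knockdown on the all-names scale and leaned upward on the compared-names scale. Of 14 on the list 9 were compared, and 3 were higher, SLC39A1 at 1.37, SLC39A6 at 1.14 and SLC39A13, a transporter of the secretory pathway, at 1.08. SLC39A11 and SLC39A10 were lower at -1.35 and -1.29. Of all compared names 9.17% were higher and 33.8% lower. On the compared-names scale 5 importers were higher and 0 lower, where 17.3% and 17.0% of names were. The list's median was 0.71 beside -0.50 for all names, but with no filter on low values it lay 0.0012 from the median name. With YK-4-279 SLC39A11 was lower at -1.50, 0 were higher, and the median was -0.34 beside -0.38. Among all compared names 8.18% were lower and 1.56% higher with the compound.

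Genes of copper handling included some of the most abundant of the lists. Of 11 compared, 0 were higher and 4 lower after knockdown: COX17, the copper chaperone of cytochrome oxidase, at -2.45, SOD1, the copper-zinc superoxide dismutase, at -1.73, COX11, an assembly factor of the same oxidase, at -1.53, and COMMD1, named after its value was seen, at -1.03. On the compared-names scale 2 of these stayed past the threshold, COX17 at -1.79 and SOD1 at -1.07. The same number, CCS, the chaperone of SOD1, at 1.31 and SLC31A2 at 1.06, were then higher. Of all compared names 33.8% were lower and 9.17% higher on the all-names scale, and 17.0% and 17.3% on the other, so these counts lay near those shares or below. COX17 had 2005 FPKM in control cells and 130 after knockdown, and as described above abundant names were low there in general. With YK-4-279 0 of 11 passed in either direction on either scale, and the list's median of -0.40 lay beside -0.38 for all names. With the compound 8.18% of compared names were lower and 1.56% higher, and on the compared-names scale 1.69% and 2.41%.

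Stress genes that often accompany metallothioneins mostly stayed within the threshold under the compound and were spread more widely after knockdown. SRXN1, a sulfiredoxin, had a log2 ratio to control of 0.66 with YK-4-279, with 97.4% of compared names below it. It was scarce, at 1.35 scaled FPKM in the control and 2.71 with YK-4-279. The 1 added before taking log2 therefore shrinks its ratio, and it is not ranked against the abundant MT1X and MT2A. SLC7A11, the cystine transporter, named after its value was seen, had 0.46, with 95.6% below. HMOX1, the haem oxygenase that heavy metals and oxidants induce, had 1.85 FPKM in control cells, 3.90 after knockdown and 0.304 with YK-4-279, with log2 ratios of 1.65 and -0.17. It was scarce as well, at 0.779 scaled FPKM in the control and 0.584 with YK-4-279, so the added 1 shrinks its ratios too. Of 12 compared genes of oxidative and heavy metal stress, 2 were higher after knockdown, HMOX1 and SRXN1, the latter at 1.02. Lower were HSPB1, a small heat shock protein, at -1.53 and GSS, glutathione synthetase, at -1.08. Of all compared names 9.17% were higher and 33.8% lower. On the compared-names scale 5 of the stress genes were higher and 0 lower, where 17.3% and 17.0% of names were. With YK-4-279 0 passed the threshold upward on the all-names scale, as was so for MT1X and MT2A. There 1 was lower, GSS at -1.57, and the median was -0.29 beside -0.38 for all names. Among all compared names 1.56% were higher and 8.18% lower with the compound. On the compared-names scale 0 of the stress genes were higher and 1 was lower, GSS at -1.07, where 2.41% and 1.69% of names were. MT1X and MT2A did pass upward on that scale, at 1.04 and 1.21.

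Glucocorticoid targets were mixed. SGK1, a kinase induced by the hormone, was the 1 gene of the 5 compared that was higher with YK-4-279, at 92.9 FPKM in control cells, 42.5 after knockdown and 44.6 with the compound, with log2 ratios of 0.35 and 1.11. FKBP5, counted in a row joined with LOC285847, was lower in both treated libraries, at -1.03 and -1.06, though not past the threshold on the compared-names scale. DUSP1, a phosphatase, was higher after knockdown at 1.59. Among all compared names 9.17% were higher and 33.8% lower after knockdown, and 1.56% and 8.18% with YK-4-279.

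**Figure D5:**
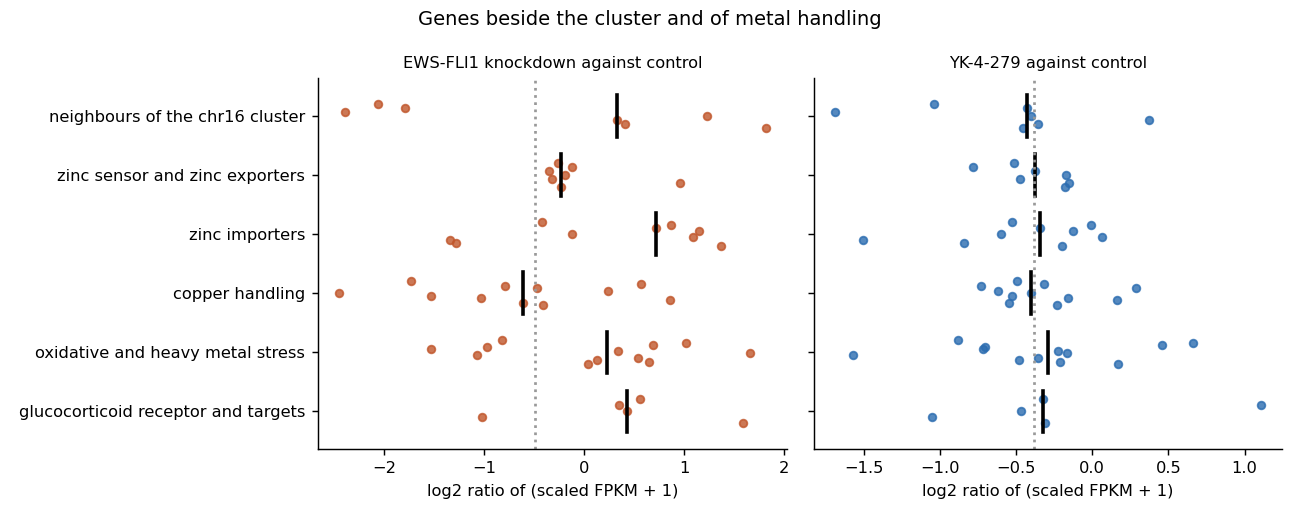
Log2 ratios to control of the compared genes of the lists of neighbours, zinc, copper, stress and glucocorticoid genes, 1 point per gene, on the all-names scale, with each list's median as a black bar and the median of all compared names as a dotted line. With YK-4-279 the bars lie within -0.43 and -0.29, close to the dotted line at -0.38, and after knockdown they range from -0.61 for copper handling to 0.71 for zinc importers.

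Other metallothionein loci gave little signal. Of 11 further names on the list 6 were in the files, and MT1B, MT4, MT1L, MT1DP and MT1JP were listed at 0 in all 3 libraries. MT1IP, a pseudogene of the cluster, had 0 FPKM in control cells, 0.0307 after knockdown and 0.0230 with YK-4-279. MT1P2, a pseudogene outside the list that was picked out after its values were seen, had 0, 0.172 and 0.238 FPKM. MT1E, at 4.68 FPKM with YK-4-279, was above both.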

How the data were processed

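The authors deposited FPKM per locus, 88434 loci in each of 3 libraries, of which 24751 carry a gene name. TopHat, Cufflinks 2.2.1, CASAVA 1.8.2 and the build GRCh37 (hg19) are named in the submitters' processing notes. The sources used here give no roles for them, no annotation and no scaling between libraries. Per the labels' protocols, cDNA came from total RNA by a SMARTer kit, was sheared and was amplified by PCR. In the knockdown file the value column is headed dEF, and the group was taken from the title, shEF. Rows were summed per name and scaled as described, with a pseudocount of 1, a minimum mean of 1 FPKM and a threshold of 1 on the log2 scale (Python 3.11.15, pandas 2.3.3, numpy 2.4.6). The scaling was tested on simulated data with the same noise at every level. Ratios in these libraries moved with level, which that simulation does not cover. Fragments were estimated from the lowest FPKM step of single-transcript olfactory receptor genes times full GENCODE length, and cover counting error only. A shorter length in the authors' FPKM was not allowed for. Sequences came from GENCODE release 29 and RefSeq, joined by symbol, with coding parts aligned in Biopython 1.88. Named were all members, list genes past the threshold (up to 3 at each end), MTF1, SLC30A1, the nearest neighbours and the 5 names most like the family. For COL3A1, FKBP5, SCO2 and XG the row joins other names. A result on the neighbours' list is not reported here. The members and lists were chosen with earlier results of these data known. Alternatives were other scalings, a pseudocount of 0.1, other filters and other row rules.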

Additional observations from a re-analysis of the deposited data

How the results depend on the processing

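No result had a replicate, so no library could be left out. No paired analysis was possible because each group is 1 library. The ratio of MT1X to MT2A within a library does not depend on the scaling between libraries. Taking exact names only or the highest row of a symbol moved no result past a threshold or by over the margins used here. The direction of the family sum after knockdown, and of MT2A after knockdown and both abundant members with YK-4-279 on deposited values, depended on the scaling, as follows, with log2 ratios throughout and list medians given relative to the median compared name. On deposited values with no scaling, knockdown against control had the family sum at -2.10, MT2A at -1.02, 2 members lower, 301 compared names higher and 7094 compared names lower. YK-4-279 against control had the family sum at -1.56, MT1X at -1.65, MT2A at -1.47, 2 members lower, 57 compared names higher and 9160 compared names lower, with list medians of 0.0053 for neighbours and -0.16 for zinc importers. YK-4-279 against knockdown had the family sum at 0.55, 505 compared names higher and 2136 compared names lower. With equal total FPKM, knockdown against control had the family sum at 0.63, 1 member higher, 0 members lower, 3035 compared names higher and 601 compared names lower. The compound against control then had the family sum at 1.13, 3 members higher and 165 compared names lower, with list medians of 0.0072 for copper and -0.085 for glucocorticoid. YK-4-279 against knockdown had the family sum at 0.50, 531 compared names higher and 2801 compared names lower. Scaled on the upper quartile, knockdown against control had 1510 compared names higher and 1980 compared names lower. Against control, YK-4-279 had the family sum at 1.19, 3 members higher, 267 compared names higher and 149 compared names lower, with list medians of 0.0044 for copper, -0.0020 for stress and -0.11 for glucocorticoid. With deposited ratios centred on the median compared name, knockdown against control had 1 member higher and 2206 compared names higher. YK-4-279 against control had 1225 compared names higher and 446 compared names lower, with list medians of 0.0053 for neighbours and -0.16 for zinc importers. YK-4-279 against knockdown had the family sum at 0.92 and 1121 compared names higher. With a pseudocount of 0.1, knockdown against control had 1 member higher, with list medians of 1.12 for neighbours and 1.15 for glucocorticoid. The compound against control then had 305 compared names higher and 1268 compared names lower, with list medians of 0.024 for copper and -0.13 for glucocorticoid. YK-4-279 against knockdown had 1755 compared names lower. With no filter on low values, knockdown against control had list medians of -0.13 for zinc exporters and 0.0012 for zinc importers. Against control, YK-4-279 had 3 members higher and 242 compared names higher, with list medians of -0.17 for zinc exporters, -0.15 for zinc importers, -0.22 for stress and -0.21 for glucocorticoid. YK-4-279 against knockdown had 4 members higher. With a minimum mean of 5 FPKM, knockdown against control had 364 compared names higher, with list medians of -0.73 for neighbours, 0.94 for zinc importers and 0.15 for copper. YK-4-279 against control had 0 members higher and 84 compared names higher, with list medians of 0.080 for neighbours, 0.025 for copper and -0.18 for stress. YK-4-279 against knockdown had 1 member higher and 556 compared names lower. On the compared-names scale, chosen after seeing the data, knockdown against control had the family sum at 0.039, 1 member higher, 0 members lower, 1715 compared names higher and 1689 compared names lower. The compound against control then had the family sum at 1.14, 3 members higher, 240 compared names higher and 168 compared names lower, with list medians of 0.0065 for copper and -0.094 for glucocorticoid. Where no value shows it, the cause of these differences was not tested. Depth sets how low a level the members listed at 0 could hide only where that 0 is a low count. Whether it was a failed estimate was not tested.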
